A study of Homo sapiens with 8 samples.

Results

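The transcripts of 10 genes of heme breakdown and iron handling were measured by RNA-seq in 2 lung adenocarcinoma cell lines, with and without an electrophile that activates NRF2. The genes were chosen for their roles, with earlier results of these data known, so counts over the 10 are descriptions: *HMOX1*, *BLVRA* and *BLVRB* in heme breakdown, *FECH*, *ABCB6* and *SLC48A1* in heme synthesis and transport, *FTH1* and *FTL* as the ferritin subunits, and *TFRC* and *SLC40A1* in iron import and export. Of the 57815 gene identifiers in the deposited tables, these are 10, and all 10 passed the minimum of 1 FPKM (fragments per length of transcript and depth of library), averaged over the 4 libraries of a line, in both lines. ABC1 and HCC4006 are established human lines that carry no mutation in *KEAP1*, whose protein holds NRF2 at a low level, or in *NRF2*. Cells received 100 μM DEM or the vehicle DMSO for 16 h, which gave 4 groups (ABC1 vehicle, ABC1 DEM, HCC4006 vehicle and HCC4006 DEM) of 2 libraries each, made as biological duplicates per the study's methods and given below in the order of their numbers, 0 and 1. DEM is diethyl maleate in the study's methods, whereas the series title names the dimethyl ester. Each line stands for itself only, and a difference between the lines is not a difference between kinds of tumor.

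Heme oxygenase, the *HMOX1* product, opens the heme ring and releases biliverdin, carbon monoxide and iron, and biliverdin reductases turn biliverdin into bilirubin. The freed iron is stored in ferritin, a shell of heavy and light chains, or leaves the cell through ferroportin, while transferrin bound to its receptor brings iron in. Iron regulatory proteins bind hairpins called iron-responsive elements in several of these mRNAs, where they block translation of ferritin and ferroportin and stabilize the transferrin receptor mRNA. *HMOX1* and the ferritin genes are also known targets of NRF2, a transcription factor that binds antioxidant response elements (AREs), and BACH1 is a heme-binding repressor that occupies the same elements.

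The libraries differed little in scale, with FPKM sums whose largest was 1.18 times the smallest and 12515 to 13573 genes at 1 FPKM or more. FPKM values carry no read count, so the authors' base mean is given as a guide to the depth behind a gene. It is their mean of scaled counts over the 4 libraries of a line. *NQO1* and *GCLM*, NRF2 targets that serve to show that DEM acted, rose in both lines, by 1.59 and 1.61 on the log2 scale in ABC1 and by 0.89 and 2.15 in HCC4006 (limma, BH-adjusted p at most 0.0422). *EPCAM*, *KRT8*, *KRT18*, *KRT19* and *CDH1* marked both lines as epithelial, and with *KRT7* they summed to 3666 to 5825 FPKM in ABC1 and 3443 to 4578 FPKM in HCC4006. The sums hide differences between the lines. *KRT7* lay at 10.4 to 25.9 FPKM in ABC1 and 1460 to 2110 FPKM in HCC4006, and *KRT8* at 1620 to 2910 and 621 to 927 FPKM. The lung lineage markers *NKX2-1* and *NAPSA* lay at 42.4 to 47.1 and 12.9 to 16.0 FPKM in HCC4006 and under 1 FPKM in every ABC1 library. *SFTPC* was at or near 0 in all libraries. Of 10 matched markers of other cell types, 7 were under 1 FPKM in every library of both lines, among them *PTPRC*, *CD163* and *ALAS2*. The others were *CD68*, *COL1A1* and *HBB*. The fibroblast marker *COL1A1* lay at 3.58 to 5.96 FPKM in ABC1 and 6.17 to 7.64 FPKM in HCC4006. The erythroid marker *HBB* lay at 0 to 1.2 FPKM in ABC1 and 0 to 3.02 FPKM in HCC4006. The 10 summed to 6.47 to 8.25 FPKM in ABC1 and 97.7 to 110 FPKM in HCC4006. Most of the HCC4006 sum was *CD68* at 89.3 to 102 FPKM, for which the authors' base mean was only 5.56. Because each library pools many cells, more cells with a transcript and more transcript per cell cannot be told apart.

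In HCC4006, DEM raised the heme oxygenase gene, 1 of the 2 biliverdin reductases, the 3 genes of heme synthesis and transport and both ferritin subunits. In ABC1 the same genes were higher with DEM, but only the first 2 passed the test, and the genes of the transferrin receptor and ferroportin showed no detectable change in either line. In each line 7 of the 10 genes, *HMOX1*, *BLVRB*, *FECH*, *ABCB6*, *SLC48A1*, *FTH1* and *FTL*, had both DEM libraries above both vehicle libraries, and none of the 10 had both below. Over all genes tested, both DEM libraries lay above both vehicle libraries for 25.5% in ABC1 and 29.3% in HCC4006, and below for 28.2% and 35.3%. Of the 11539 genes tested in both lines, 15.4% were above in each, 16.5% below in each and 5.97% apart in opposite directions. All 7 passed the test in HCC4006, where limma with Benjamini-Hochberg (BH) adjustment over 13542 genes called 8.45% of genes up and 10.7% down at an adjusted p under 0.05. In ABC1 only *HMOX1* and *BLVRB* passed, against a background of 0.768% of 12635 genes up and 0.435% down. None of the 10 was called down in either line. Over the 10 genes the median change on the log2 scale came to 0.87 in ABC1 and 0.89 in HCC4006, beside -0.02 and -0.03 for all genes tested. With no minimum FPKM, where 29470 and 30580 identifiers were tested, 0 of the 10 passed in ABC1 and only *HMOX1* and *BLVRB* in HCC4006. Changes are on the log2(FPKM + 1) scale, which understates those of low genes. For a single gene, the exact two-sided permutation test of 2 libraries against 2 cannot go under p = 0.333, so the p-values come from limma, which shares the spread across genes.

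**Figure D1:**
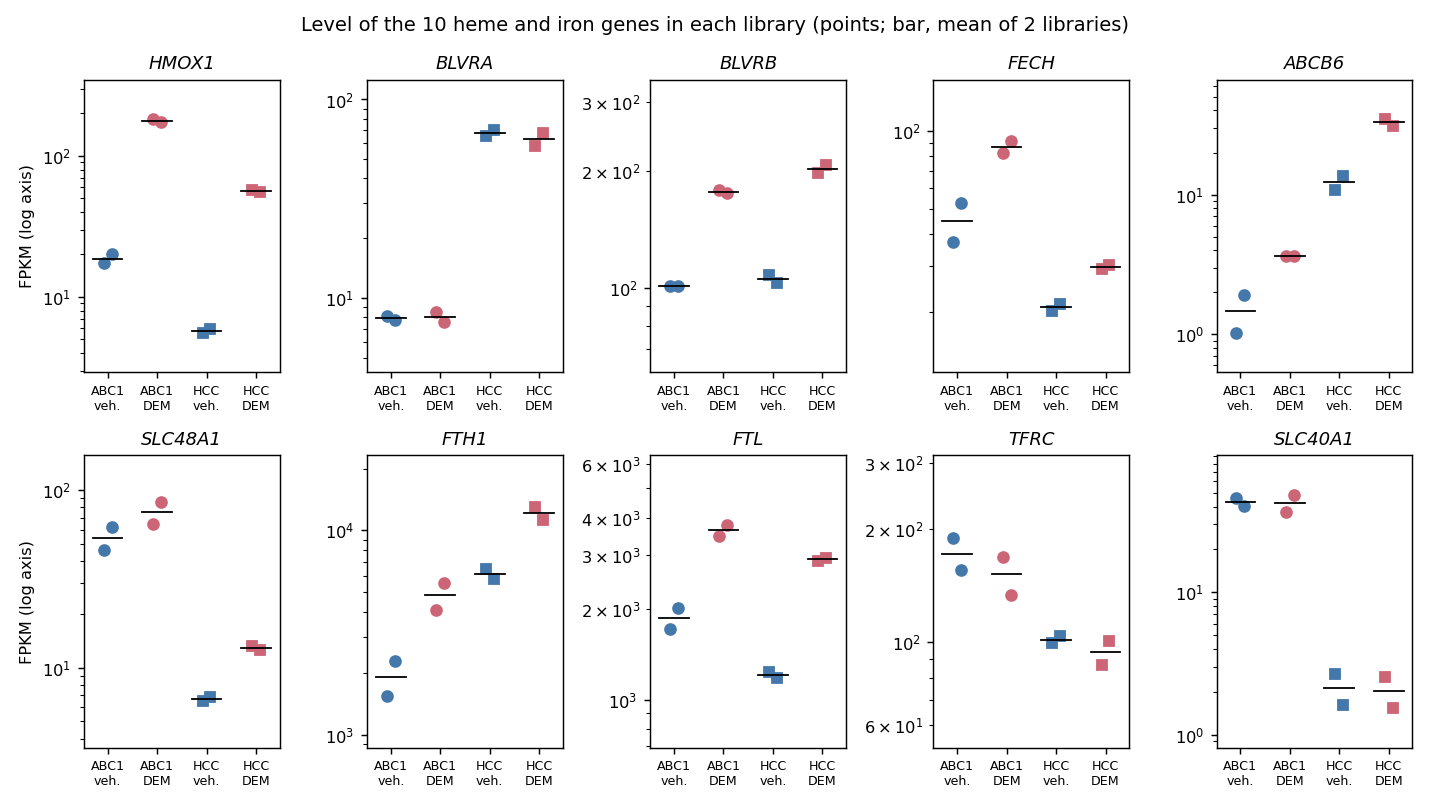
FPKM of each of the 10 genes in the 8 libraries on log axes that differ between panels, with points for libraries (circles ABC1, squares HCC4006, blue vehicle, red DEM) and bars for the mean of 2. *HMOX1* goes from 17.3 and 20.1 to 182 and 174 FPKM in ABC1, whereas *BLVRA*, *TFRC* and *SLC40A1* overlap between vehicle and DEM in both lines.

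*HMOX1* (ENSG00000100292, GRCh37 chr22:35776354-35790207, plus strand) encodes the inducible heme oxygenase. It read 17.3 and 20.1 FPKM in the ABC1 vehicle libraries and 182 and 174 FPKM in the DEM libraries. The HCC4006 values were 5.59 and 5.89 FPKM with vehicle and 57.4 and 55.4 FPKM with DEM. The DEM libraries of each line stood far above its vehicle libraries, and the DEM level of HCC4006 lay above the vehicle level of ABC1. The mean rose 9.51-fold in ABC1, from 18.7 ± 1.96 to 178 ± 5.81 FPKM (SD, n = 2), or by 3.19 on the log2 scale (standard error, SE, 0.13, limma, BH-adjusted p = 0.00428), and 9.81-fold in HCC4006. This change ranked 8th of the 12635 genes tested in ABC1 and 4th of the 13542 in HCC4006. By level, *HMOX1* moved from rank 5051 to rank 549 of all identifiers in ABC1 and from rank 9363 to rank 2084 in HCC4006. The base mean was 2365 in ABC1 and 792 in HCC4006, so the values rest on many counted reads in both.

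Of the biliverdin reductases, *BLVRB* passed the test in both lines and *BLVRA* in neither. *BLVRB* (ENSG00000090013, GRCh37 chr19:40953672-40971671, minus strand), which encodes biliverdin reductase B, a flavin reductase as well, read 101.4 and 101.1 FPKM with vehicle and 178 and 175 FPKM with DEM in ABC1. HCC4006 showed much the same, with 108 and 103 FPKM with vehicle and 197 and 206 FPKM with DEM. The groups did not overlap in either line, and the vehicle levels of the 2 lines were close. On the log2 scale *BLVRB* rose by 0.80 in ABC1 (SE 0.12, limma, BH-adjusted p = 0.0482) and 0.93 in HCC4006 (SE 0.07, limma, BH-adjusted p = 0.00163). The ABC1 call was lost whichever of the 4 libraries was left out, with adjusted p between 0.107 and 0.325 by limma.

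*BLVRA* (ENSG00000106605, GRCh37 chr7:43798279-43846941, plus strand), which encodes biliverdin reductase A, the main reductase of biliverdin in adults, showed no detectable change. It read 8.11 and 7.77 FPKM with vehicle and 8.48 and 7.56 FPKM with DEM in ABC1, and 65.4 and 70.3 FPKM with vehicle and 58.2 and 68.0 FPKM with DEM in HCC4006. Vehicle and DEM overlapped in both lines, whereas every HCC4006 library lay far above every ABC1 library. Its log2 fold change came to 0.01 in ABC1 (95% confidence interval -0.33 to 0.36, limma, BH-adjusted p = 0.972) and -0.11 in HCC4006 (-0.35 to 0.13, limma, BH-adjusted p = 0.467).

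*FECH* and *ABCB6* act in the mitochondrial end of heme synthesis, and *SLC48A1* encodes HRG1, which moves heme out of endosomes and lysosomes. *FECH* (ENSG00000066926, GRCh37 chr18:55211609-55253964, minus strand), the ferrochelatase that inserts iron into protoporphyrin, read 37.4 and 52.4 FPKM with vehicle and 82.1 and 91.0 FPKM with DEM in ABC1. Its HCC4006 values were 20.3 and 21.4 FPKM with vehicle and 29.4 and 30.3 FPKM with DEM. The groups were apart in both lines, with a wider spread between the ABC1 vehicle libraries. *FECH* rose by 0.50 on the log2 scale in HCC4006 (SE 0.08, limma, BH-adjusted p = 0.0142), and the change of 0.95 in ABC1 did not pass (SE 0.19, limma, BH-adjusted p = 0.0731). In HCC4006 the call was lost whichever of the 4 libraries was left out, with adjusted p between 0.0581 and 0.0811 by limma.

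*ABCB6* (ENSG00000115657, GRCh37 chr2:220074494-220083716, minus strand), a porphyrin transporter, read 1.03 and 1.91 FPKM with vehicle and 3.63 and 3.64 FPKM with DEM in ABC1. In HCC4006 it read 10.9 and 13.6 FPKM with vehicle and 34.8 and 31.1 FPKM with DEM. The groups did not overlap in either line, and ABC1 with DEM stayed under HCC4006 with vehicle. The mean rose 2.69-fold in HCC4006 (log2 fold change 1.36, SE 0.13, limma, BH-adjusted p = 0.00323). In ABC1 the DEM mean was 2.48 times the vehicle mean, and the log2 fold change was 0.93 (SE 0.24, limma, BH-adjusted p = 0.110). With a pseudocount of 0.1 the log2 fold change was 1.43 in HCC4006 and 1.31 in ABC1, where it again did not pass (limma, BH-adjusted p = 0.115). The authors' base mean was low, at 5.73 in ABC1 and 25.5 in HCC4006. It was also low for the FPKM, since scaled counts per FPKM and kilobase were 7.91% of the median gene's in ABC1 and 3.88% in HCC4006. The depth behind the *ABCB6* FPKM is therefore not known from the base mean. The length was that of the canonical transcript in the GENCODE annotation used here, which need not be the length behind the FPKM. In the GENCODE annotation used here, 54.6% of the exon bases of *ABCB6* are also exon bases of ENSG00000284820 on the same strand. Whether the annotation behind the deposited values held this overlap was not examined, and the part of the overlap in the values was not tested. For *FECH* the same measure was 20.4% in both lines with no shared exon bases, and for the other 8 genes it lay between 75.4% and 168%. The *FECH* length used was 7689 bases and its base mean was 984 in ABC1 and 387 in HCC4006, and the part of the length in its low percentage was not tested.

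*SLC48A1* (ENSG00000211584, GRCh37 chr12:48147699-48176534, plus strand) read 45.9 and 62.1 FPKM with vehicle and 64.7 and 86.0 FPKM with DEM in ABC1, and 6.48 and 6.88 FPKM with vehicle and 13.2 and 12.6 FPKM with DEM in HCC4006. The ABC1 groups only just parted, whereas those of HCC4006 were well apart. It rose by 0.86 on the log2 scale in HCC4006 (SE 0.10, limma, BH-adjusted p = 0.00616) and the change was 0.47 in ABC1 (SE 0.21, limma, BH-adjusted p = 0.256). The ABC1 value was 0.26 without vehicle library 0 and 0.27 without DEM library 1. It was 0.69 without vehicle library 1 and 0.68 without DEM library 0.

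Because NRF2 binds AREs, the promoters were searched for the core TGACNNNGC on both strands, in RefSeq windows (GRCh38.p14) from 250 bases before to 50 bases after each gene's start. Windows were at hand for 8 of the 10 genes, not for *HMOX1* and *FTH1*. A match was present in 2 of the 8, *ABCB6* and *FECH*, beside 4687 of all 35116 windows (13.3%). The 2 stretches are shown to place the match in its surroundings, on the strand of the gene and with the match in capitals. The *ABCB6* match starts 152 bases before the start and reads along the gene (chr2:219219077-219219135, minus strand), and the *FECH* match starts 38 bases before the start and reads on the other strand (chr18:57586707-57586765, minus strand).
*ABCB6*: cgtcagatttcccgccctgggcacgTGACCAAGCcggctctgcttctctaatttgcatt
*FECH*: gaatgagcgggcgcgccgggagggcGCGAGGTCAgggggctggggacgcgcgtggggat
*BLVRB*, *SLC48A1* and *FTL*, which also rose in HCC4006, held no match in these windows, which do not reach distal elements. A match is a string of letters and not a measured binding site.

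The ferritin subunits were among the most abundant transcripts of both lines. *FTH1* (ENSG00000167996, GRCh37 chr11:61727190-61735106, minus strand), the heavy chain with ferroxidase activity, read 1539.8 and 2291 FPKM with vehicle and 4082 and 5519.6 FPKM with DEM in ABC1. HCC4006 had 6444 and 5778 FPKM with vehicle and 13032.5 and 11157 FPKM with DEM. Vehicle and DEM were apart in both lines, and all ABC1 libraries lay below all HCC4006 libraries. By mean level *FTH1* ranked 33rd of all identifiers in ABC1 with vehicle and 12th with DEM, and 7th and 3rd in HCC4006. *FTH1* rose by 0.98 on the log2 scale in HCC4006 (SE 0.10, limma, BH-adjusted p = 0.00373). In ABC1 its change was 1.34, but did not pass (SE 0.27, limma, BH-adjusted p = 0.0768), and the 2 libraries of each ABC1 group differed more than those of HCC4006. In both ABC1 groups library 1 read higher than library 0 for *FTH1*, *FTL*, *FECH* and *SLC48A1*, and its FPKM sum was also higher, at 697394 against 628775 with vehicle and 737534 against 627085 with DEM. With each library set to a common FPKM sum, *FTH1*, *FTL* and *FECH* passed in ABC1 (limma, BH-adjusted p = 0.0310, 0.0287 and 0.0431).

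*FTL* (ENSG00000087086, GRCh37 chr19:49468566-49470136, plus strand), the light chain, which aids the deposition of the iron core, read 1709.9 and 2007 FPKM with vehicle and 3479 and 3783 FPKM with DEM in ABC1. HCC4006 had 1238 and 1176 FPKM with vehicle and 2873 and 2949 FPKM with DEM. The groups did not overlap in either line. *FTL* rose by 1.27 on the log2 scale in HCC4006 (SE 0.06, limma, BH-adjusted p = 5.2e-04) and had a change of 0.97 in ABC1 that did not pass (SE 0.18, limma, BH-adjusted p = 0.0696).

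The FPKM ratio of *FTH1* to *FTL*, a comparison of levels per length, was 1.02 ± 0.17 in ABC1 with vehicle and 1.32 ± 0.20 with DEM, and 5.06 ± 0.20 in HCC4006 with vehicle and 4.16 ± 0.53 with DEM (SD, n = 2). The libraries of the 2 lines did not overlap in this ratio, whichever the treatment, and no test was made of it. The 2 genes together made up 0.567% ± 0.0703 of a library's FPKM sum in ABC1 with vehicle and 1.23% ± 0.0393 with DEM, and 1.075% ± 0.0370 in HCC4006 with vehicle and 2.20% ± 0.138 with DEM (SD, n = 2). Ferritin genes have many processed pseudogenes whose sequence is close to the parent's. The 25 identifiers named as *FTH1* pseudogenes summed to between 0.837% and 1.09% of the *FTH1* value in each library, and the 16 of *FTL* to between 0.290% and 0.676% of the *FTL* value. The highest by mean FPKM were *FTH1P10* at 11.1, *FTLP3* at 9.76 and *FTH1P2* at 9.29. How far reads of the parent and the copy were told apart was not examined. Adding each sum to its parent gained or lost no call.

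*TFRC* (ENSG00000072274, GRCh37 chr3:195739382-195809024, minus strand), the transferrin receptor, read 189 and 155 FPKM with vehicle and 169 and 134 FPKM with DEM in ABC1. HCC4006 had 99.2 and 103.5 FPKM with vehicle and 86.9 and 100.7 FPKM with DEM. Vehicle and DEM overlapped in both lines. The log2 change of *TFRC* was -0.19 in ABC1 (95% confidence interval -0.62 to 0.25, limma, BH-adjusted p = 0.573) and -0.11 in HCC4006 (-0.34 to 0.11, limma, BH-adjusted p = 0.400). These intervals leave room for a modest change in either direction.

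*SLC40A1* (ENSG00000138449, GRCh37 chr2:190425316-190448484, minus strand) encodes ferroportin, the iron exporter. It read 46.0 and 40.2 FPKM with vehicle and 36.9 and 48.1 FPKM with DEM in ABC1, and 2.67 and 1.62 FPKM with vehicle and 2.55 and 1.54 FPKM with DEM in HCC4006. Vehicle and DEM overlapped in both lines, and the HCC4006 level was near the minimum for testing, with a base mean of 51.3. For *SLC40A1* the log2 change was -0.03 in ABC1 (95% confidence interval -0.44 to 0.39, limma, BH-adjusted p = 0.941) and -0.05 in HCC4006 (-0.66 to 0.57, limma, BH-adjusted p = 0.911).

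The iron-responsive element was searched for in the GRCh37 transcripts as a C, 5 bases, CAGTGN and 5 bases that pair with the first 5 (G-U pairs allowed), on the transcript strand. It was present in 4 of the 10 genes, *FTH1*, *FTL*, *SLC40A1* and *TFRC*, beside 259 of 19894 coding transcripts (1.3%). The mRNAs of ferritin, ferroportin and the transferrin receptor are known to carry the element, so this count is a description. In *FTH1*, *FTL* and *SLC40A1* the match lies in the 5′ UTR, where 18 of all transcripts (0.0905%) have one, and in *TFRC* there are 4 matches in the 3′ UTR. The matches of *FTL*, *SLC40A1* and *TFRC* are shown in their surroundings, each with 30 bases and the loop CAGTGN in capitals. Each match is a string of letters, and folding, protein binding and response to iron were not measured. The *FTL* stretch lies at chr19:49468592-49468621 on the plus strand, that of *SLC40A1* at chr2:190445386-190445415 on the minus strand, and those of *TFRC*, all on the minus strand and listed from 5′ to 3′, at chr3:195777849-195777878, chr3:195777445-195777474, chr3:195777380-195777409 and chr3:195777333-195777362.
*FTL*: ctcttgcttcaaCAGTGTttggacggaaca
*SLC40A1*: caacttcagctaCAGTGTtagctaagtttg
*TFRC* 1: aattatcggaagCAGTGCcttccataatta
*TFRC* 2: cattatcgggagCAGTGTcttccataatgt
*TFRC* 3: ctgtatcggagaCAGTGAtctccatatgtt
*TFRC* 4: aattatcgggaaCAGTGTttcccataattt
Of the genes with the 5′ element, *FTH1* and *FTL* passed the test in HCC4006 and not in ABC1 and *SLC40A1* in neither line, and the difference in response between the genes was not tested. Translation, on which the 5′ elements act, was not measured.

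**Figure D2:**
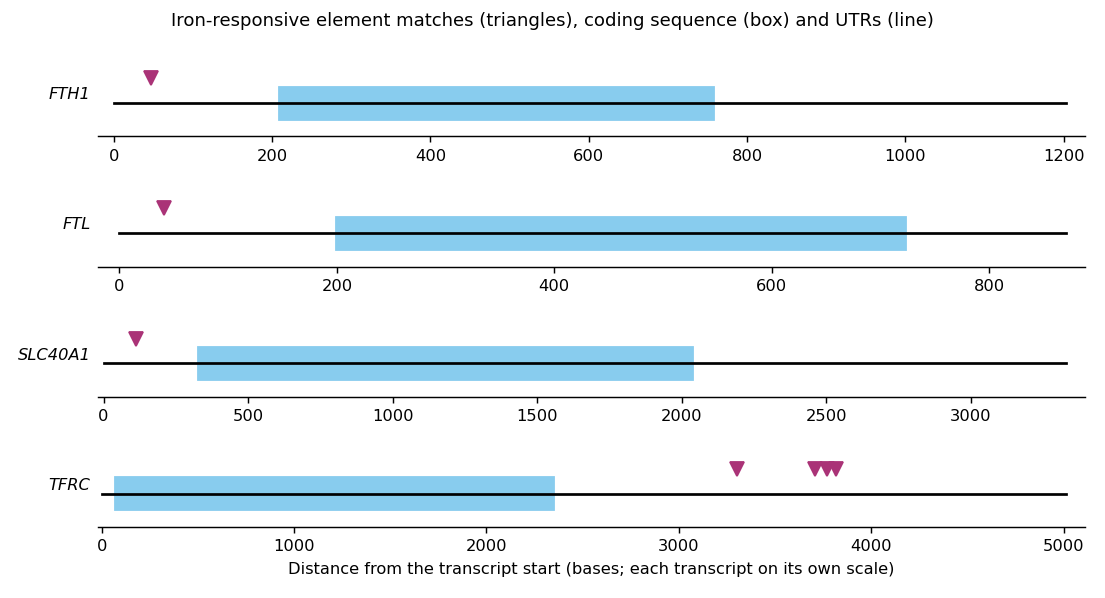
Transcripts of *FTH1*, *FTL*, *SLC40A1* and *TFRC* drawn to scale in bases from the transcript start, each on its own axis, with the coding sequence as a box, the UTRs as a line and the iron-responsive element matches as triangles. The single matches of *FTH1*, *FTL* and *SLC40A1* lie before the coding sequence, and the 4 of *TFRC* lie after it.

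Whether the lines responded differently was tested on the difference itself, in 1 model of all 8 libraries. None of the 10 genes passed, beside 0.307% of 13682 genes with a more positive and 0.329% with a more negative response in HCC4006, and none of the 10 had an unadjusted p under 0.05, beside 2068 of all genes. For *HMOX1* the difference, HCC4006 minus ABC1, was -0.10 on the log2 scale with a 95% confidence interval of -0.43 to 0.23 (limma, BH-adjusted p = 0.823). The interval for *BLVRB* ran from -0.14 to 0.40, that for *FTL* from -0.09 to 0.69 and that for *FTH1* from -1.10 to 0.39. The smallest unadjusted p, 0.0748 by limma, was that of *FECH*, with a difference of -0.45 (95% confidence interval -0.96 to 0.06, limma, BH-adjusted p = 0.392). With 1 library left out the *FECH* difference ranged from -0.69 (without ABC1 vehicle library 1) to -0.21 (without ABC1 vehicle library 0), and that of *FTH1*, -0.35 with all libraries, from -0.64 to -0.07 on leaving out the same libraries. A gene called in HCC4006 and not in ABC1, such as *FTH1*, was therefore not shown to respond differently in the lines. In this model of all 8 libraries, *FTH1*, *FTL*, *FECH* and *ABCB6* passed the test in ABC1 as well, with adjusted p of 0.0141, 0.00543, 0.0128 and 0.0245 by limma, whereas *FECH* did not pass in HCC4006 (limma, BH-adjusted p = 0.0818).

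**Figure D3:**
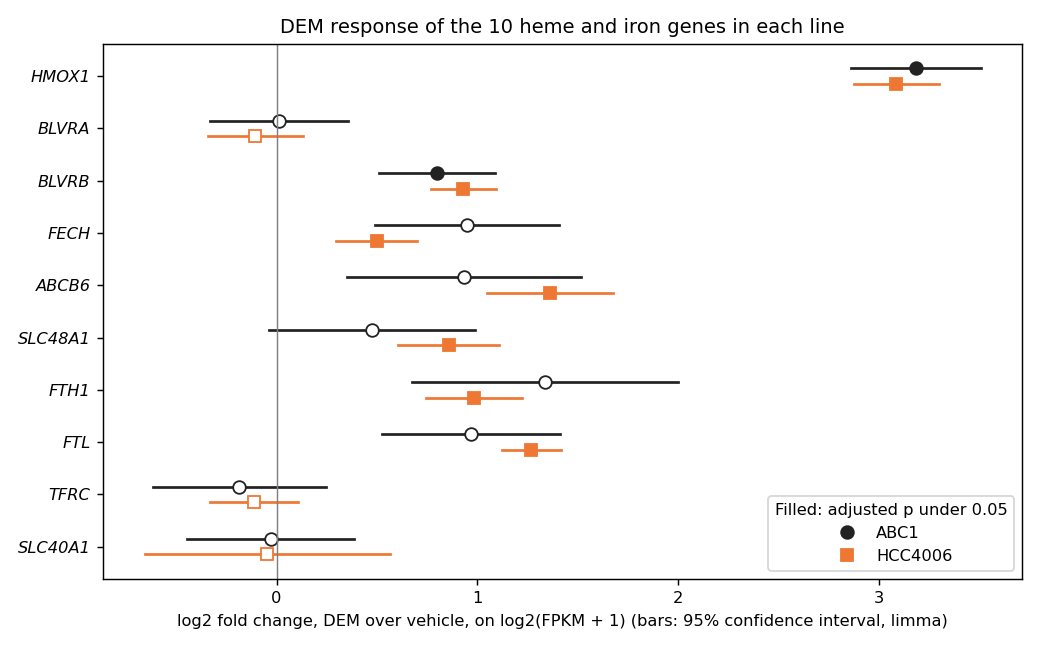
Log2 fold change of DEM over vehicle on log2(FPKM + 1) for the 10 genes in ABC1 (circles) and HCC4006 (squares), with 95% confidence intervals from limma and filled symbols at an adjusted p under 0.05. *HMOX1* lies at 3.19 and 3.09, 6 genes lie between 0.47 and 1.36, and the intervals of *BLVRA*, *TFRC* and *SLC40A1* span 0 in both lines. The ABC1 interval of *SLC48A1*, -0.04 to 0.99, also spans 0.

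The vehicle levels differed between the lines for 9 of the 10 genes, with 3 higher and 6 lower in HCC4006, in a transcriptome where limma called 36.8% of genes higher and 30.2% lower in that line. *BLVRA* was 8.55 times, *ABCB6* 8.35 times and *FTH1* 3.19 times as high in HCC4006 as in ABC1 by mean FPKM. For *ABCB6* the base means were low, at 5.73 in ABC1 and 25.5 in HCC4006. Its scaled counts per FPKM and kilobase, 7.91% of the median gene's in ABC1 and 3.88% in HCC4006, differed between the lines. FPKM and scaled counts therefore do not give the same *ABCB6* ratio. *SLC40A1* was 20.1 times, *SLC48A1* 8.09 times and *HMOX1* 3.25 times as high in ABC1, followed by *FECH*, *TFRC* and *FTL*. On the log2 scale the differences, HCC4006 minus ABC1, ran from -3.83 for *SLC40A1* (SE 0.23, limma, BH-adjusted p = 4.26e-06) to 2.94 for *BLVRA* (SE 0.11, limma, BH-adjusted p = 4.37e-07). *BLVRB* did not pass, with a difference of 0.06 (95% confidence interval -0.13 to 0.25, limma, BH-adjusted p = 0.548). On this scale the line differences of 7 genes, *BLVRA*, *ABCB6*, *SLC48A1*, *SLC40A1*, *FTH1*, *FECH* and *TFRC*, were larger in size than their DEM changes in either line, and those of *HMOX1*, *BLVRB* and *FTL* were smaller than in both, a comparison of values that was not tested. The vehicle libraries serve in both the line comparison and the DEM comparison, so the 2 sets of values are not independent.

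**Figure D4:**
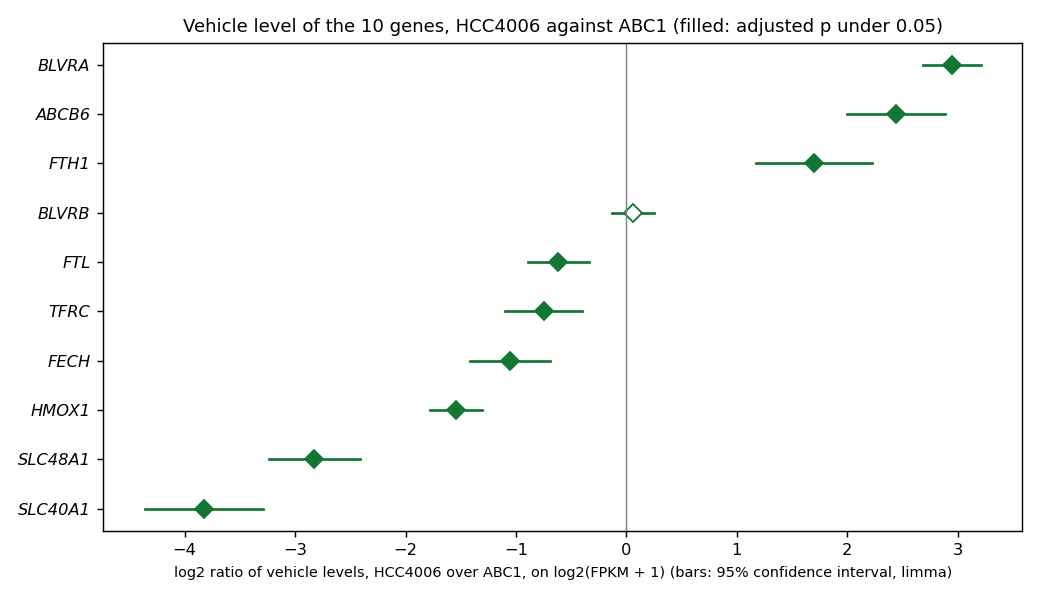
Log2 ratio of the vehicle level in HCC4006 over ABC1 on log2(FPKM + 1) for the 10 genes, with 95% confidence intervals from limma and filled symbols at an adjusted p under 0.05. *BLVRA* (2.94), *ABCB6* (2.44) and *FTH1* (1.70) lie to the right, *BLVRB* lies near 0, and the other 6 lie to the left down to *SLC40A1* at -3.83.

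In order of level, *HMOX1* and *FTL* were lowest in HCC4006 with vehicle, followed by ABC1 with vehicle, HCC4006 with DEM and ABC1 with DEM, with no overlap between neighbors. *FECH* and *SLC48A1* were lowest in HCC4006 with vehicle, then HCC4006 with DEM, ABC1 with vehicle and ABC1 with DEM, and *ABCB6* and *FTH1* had the lines the other way round. *BLVRB* was ordered by treatment, with both vehicle groups below both DEM groups. *BLVRA*, *TFRC* and *SLC40A1* were ordered by line, and within each line their vehicle and DEM libraries overlapped.

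Of 40 further heme and iron genes, 39 were matched to an identifier, 32 were tested in ABC1 and 34 in HCC4006, and the list had a median log2 change of -0.12 in ABC1 and of -0.01 in HCC4006. None was called in ABC1, where 0.768% and 0.435% of all genes were called up and down. In HCC4006, 2 of the 34 were called up and 3 down, beside the 8.45% and 10.7% of all genes, so neither count stands out from the background. None of the 33 tested for the difference between the lines passed, and with median-of-ratios scaling only *CPOX* did (-0.94, limma, BH-adjusted p = 0.0433, against 0.0642). *BACH1*, the heme-binding repressor of *HMOX1*, had the largest change of those called in HCC4006, from 7.73 and 10.5 FPKM with vehicle to 17.5 and 23.1 FPKM with DEM (log2 fold change 1.08, SE 0.18, limma, BH-adjusted p = 0.0152). In ABC1 *BACH1* read 6.16 and 5.90 FPKM with vehicle and 8.49 and 7.54 FPKM with DEM (0.36, limma, BH-adjusted p = 0.225). The difference between the lines was 0.72 (limma, BH-adjusted p = 0.237). *ABCG2*, an efflux pump that also carries porphyrins, went from 2.72 and 3.81 FPKM to 6.09 and 5.85 FPKM in HCC4006 (log2 fold change 0.72, limma, BH-adjusted p = 0.0332), and was under 1 FPKM in ABC1. *CPOX*, the coproporphyrinogen oxidase of heme synthesis, fell by 0.52 in HCC4006 (limma, BH-adjusted p = 0.0180), from 21.0 and 22.6 FPKM to 14.3 and 15.4 FPKM. The other two called down, named after their values were seen, were *ACO1*, which encodes iron regulatory protein 1 (log2 fold change -0.48, limma, BH-adjusted p = 0.0165), and *NFS1*, the cysteine desulfurase of iron-sulfur cluster assembly (-0.42, limma, BH-adjusted p = 0.0460). The count of 5 was 0 without HCC4006 vehicle library 0, 2 without vehicle library 1, 1 without DEM library 0 and 1 without DEM library 1.

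Of the enzymes of heme synthesis before *FECH*, none was called up in either line. For the 7 enzymes from *ALAS1* to *PPOX*, both DEM libraries lay above both vehicle libraries in 2 cases and below in 3 in ABC1, and in 0 and 3 in HCC4006, beside 25.5% and 28.2% of all genes in ABC1 and 29.3% and 35.3% in HCC4006. *ALAS1*, the first enzyme of the path, named after its values were seen, read 13.6 and 18.6 FPKM with vehicle and 32.2 and 35.4 FPKM with DEM in ABC1, a log2 fold change of 1.04 that did not pass (SE 0.18, limma, BH-adjusted p = 0.0627). In HCC4006 *ALAS1* read 17.6 and 17.4 FPKM with vehicle and 19.6 and 17.5 FPKM with DEM, and the test of the difference between the lines gave -0.96 (limma, BH-adjusted p = 0.0995). *HMOX2*, the constitutive heme oxygenase, also named after its values were seen, read 32.7 and 39.9 FPKM with vehicle and 26.4 and 26.3 FPKM with DEM in ABC1, and 129 and 116 FPKM with vehicle and 132 and 135 FPKM with DEM in HCC4006. It was not called in either line, with log2 fold changes of -0.44 and 0.13. The genes of iron export other than *SLC40A1*, namely *CP*, *HEPH* and *HAMP*, again named after their values were seen, were too low to test in both lines.

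**Figure D5:**
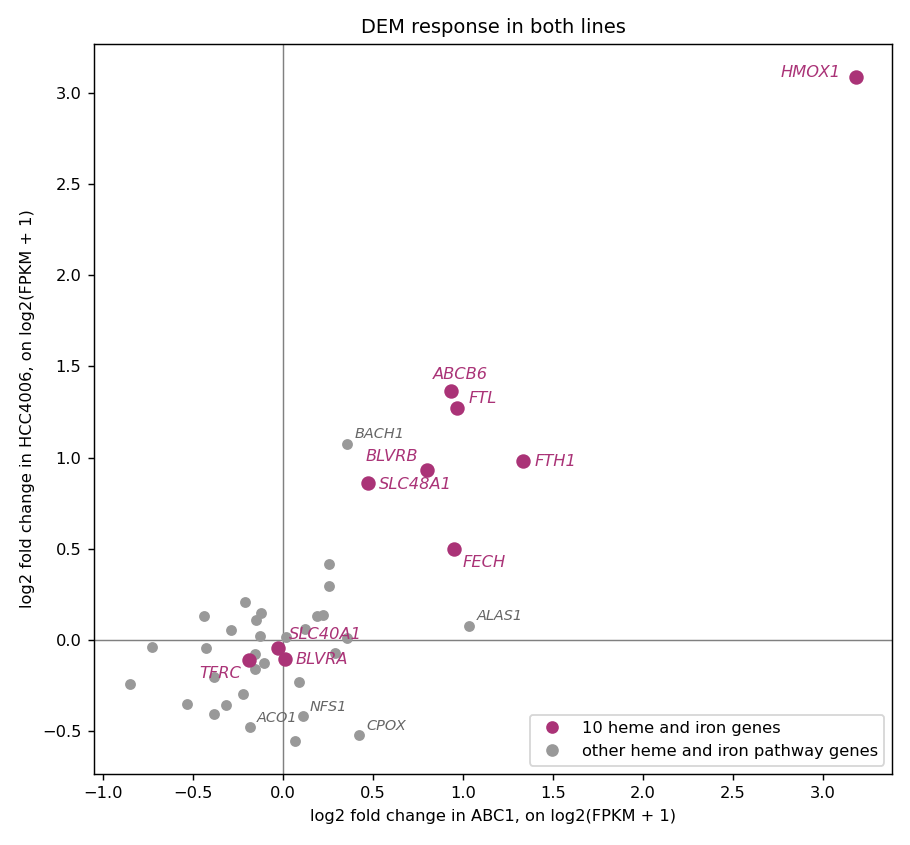
Log2 fold change of DEM over vehicle on log2(FPKM + 1) in ABC1 (x axis) and HCC4006 (y axis), with large points for the 10 genes and small points for the other heme and iron genes tested in both lines. *HMOX1* stands alone at the top right and 6 further genes lie above 0 in both lines, whereas most of the other genes lie near 0.

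Genes whose level followed that of *HMOX1* and *FTH1* across the 8 libraries are named as a description only, since 8 libraries in 4 groups leave few independent points. By Pearson's r of log2(FPKM + 1) over 13682 genes, those nearest to *HMOX1* were *WWC3* (0.989), *TIMM44* (0.984) and *WAPL* (0.984). Those nearest to *FTH1* were the identifier ENSG00000228843 (0.994), *JOSD1* (0.994) and *UGDH* (0.993).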

How the data were processed

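Libraries were poly(A)-selected, strand-specific and sequenced as paired ends. According to the study's methods, the authors aligned reads to hg19 with TopHat and estimated an FPKM value per gene with Cufflinks, whereas the submitters' processing notes name bcl2fastq 2.15.0, cutadapt 1.15, STAR 2.5.3a, SAMtools, Cuffnorm, HTSeq, DESeq2 and R 3.2.0 on hg19 (GRCh37.p13), without roles. The authors also deposited 1 table per line of their own comparison, of which only the base mean, a signal of scaled counts pooled over the line's libraries, was used. Its fold changes, standard errors and p-values were not used.

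From the deposited FPKM, DEM was compared with vehicle by limma 3.58.1 in R 4.3.3 (two-sided, mean-variance trend) after a log2 transform with a pseudocount of 1, in the 4 libraries of a line. Genes whose FPKM averaged 1 or more entered, and were called at a Benjamini-Hochberg adjusted p under 0.05 over all genes tested. The difference between the lines and the vehicle levels came from all 8 libraries. Symbols were matched for 55534 of 57815 identifiers. The script was tested on simulated data. The alternatives covered the minimum, the pseudocount, the trend, the scaling, each library left out, the replicate number as a block and pooling of the libraries. The 10 genes and the pathway list were chosen with earlier results of these data known. Of the pathway list, those named were the 3 with the largest change among those called in a line, any called in both lines and any whose response differed between the lines; the others named were chosen after their values were seen. The 3 genes nearest to *HMOX1* and *FTH1*, the 3 highest pseudogenes and the sequence patterns were set by rule. FPKM give no depth, so no interval for counting error is given, and limma's spread is that between 2 libraries a group. Values of a few genes of the lists are not reported here.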

Additional observations from a re-analysis of the deposited data

How the results depend on the processing

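All 150 alternative values of the vehicle levels of the 10 genes kept direction and call. Of the 10 genes, the number called in ABC1 (2) was 0 with no minimum FPKM, 1 with no mean-variance trend, 5 with median-of-ratios scaling, 5 with a common FPKM sum, 1 (lowest and highest) with a library left out and 6 in a fit of all 8 libraries. With the replicate number as a block it was 7 in ABC1, where the all-gene counts became 1185 up and 1163 down, and the block changed no member's call in HCC4006. Across genes, the differences between libraries 0 and 1 correlated between vehicle and DEM with a Pearson's r of 0.258 in ABC1 and 0.054 in HCC4006. This measure leaves out any shift in scale that all genes share, and the labels give the libraries only a number. In HCC4006 the count of 7 was 2 with no minimum FPKM and 6 with any 1 library left out or in the fit of all 8 libraries. Of the pathway list, 0 were called in ABC1 but 1 with either other scaling, 8 with the replicate block and 3 in the fit of all 8 libraries, and in HCC4006 5 became 0 with no minimum FPKM and 0 to 2 with a library left out.

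No minimum FPKM left 0 genes called in ABC1 (3883 had an unadjusted p under 0.05) and cost *HMOX1* its call there (adjusted p = 0.110 by limma). That setting tests 29470 identifiers. In ABC1, a common FPKM sum gave 122 genes up and 119 down (50.6% up) against 97 and 55 (63.8%), and in HCC4006 median-of-ratios scaling gave 1279 up and 1240 down (50.8% up) against 1144 and 1447 (44.2%). With no mean-variance trend *BLVRB* in ABC1 had an adjusted p of 0.0761 by limma.

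Signs turned only for values near 0 that were not called. In ABC1 *BLVRA* went to -0.0219 with a common FPKM sum and ranged from -0.0618 to 0.0848 with a library left out, and *SLC40A1* from -0.21 to 0.16. In HCC4006 *BLVRA* ranged from -0.22 to 0.0040 and *SLC40A1* from -0.29 to 0.20. For the difference between the lines, *HMOX1* went to 0.0263 with a pseudocount of 0.1 and ranged from -0.20 to 0.0048 with a library left out, *TFRC* ranged from -0.10 to 0.24, and *SLC40A1* went to 0.0174 with a common FPKM sum and ranged from -0.26 to 0.23. Where a result moved, the cause was not tested. DESeq2 and edgeR were not run, since no per-library counts were used here. With 2 libraries a group, intervals are wide in ABC1.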

Other observations

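Among the other heme and iron genes, the vehicle levels differed between the lines for 21 of the 33 tested, with 9 higher and 12 lower in HCC4006, beside 36.8% and 30.2% of all genes. The genes named here were chosen after their values were seen. *STEAP3*, a ferrireductase of the transferrin cycle, read 2.93 and 4.12 FPKM in the ABC1 vehicle libraries and 29.9 and 32.0 FPKM in those of HCC4006, a log2 difference of 2.83 (limma, BH-adjusted p = 3.93e-06). *ACO1*, or iron regulatory protein 1, read 10.2 and 8.67 FPKM in ABC1 and 33.6 and 34.8 FPKM in HCC4006 (1.76, limma, BH-adjusted p = 6.78e-06). On the other side, *SLC11A2*, the ferrous iron transporter DMT1, read 59.2 and 51.1 FPKM in ABC1 and 9.35 and 9.02 FPKM in HCC4006 (-2.46, limma, BH-adjusted p = 1.02e-06). *CYBRD1*, a ferric reductase, read 101.9 and 104.9 FPKM in ABC1 and 20.8 and 18.2 FPKM in HCC4006 (-2.35, limma, BH-adjusted p = 6.25e-07). For all 4 genes every vehicle library of one line lay above both of the other.

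By separation of the libraries, 7 of the 32 pathway genes tested in both lines, among them *PGRMC1*, *STEAP3*, *SLC39A8* and *ACO1*, had both DEM libraries below both vehicle libraries in each line, and 5, *POR*, *BACH1*, *SLC39A14*, *PCBP2* and *FBXL5*, had both above in each line, beside 16.5% and 15.4% of the 11539 genes tested in both lines. A further 4, beside 5.97% of all genes, parted in opposite directions, *CPOX* and *CYBRD1* above with DEM in ABC1 and below in HCC4006, and *HMOX2* and *FLVCR1* the other way round. Of these 16 genes, *BACH1*, *CPOX* and *ACO1* passed limma's test in HCC4006 and none in ABC1, and none passed the test of the difference between the lines, although *CPOX* did with median-of-ratios scaling (limma, BH-adjusted p = 0.0433). These genes too were chosen after their values were seen.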
